A study of Homo sapiens with 9 samples.

Results

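The genes described here are 49 interferon-stimulated effector genes, out of 33861 genes in a deposited RNA sequencing table of HCT116 cells. They were taken by symbol from a fixed list, and the list was drawn up and selected on measured values of these same comparisons, so the changes of its members are given as descriptions and carry no p-value. HCT116 is a human colorectal carcinoma cell line. Its cells were kept in DMEM with 10% fetal bovine serum and gave 9 libraries in 3 groups of 3: control (labelled NC; the study calls the reference parental cells, and their time in culture is not stated), activin A at 100 ng/mL for 5 days (Activin), and the same activin course followed by HGF at 20 ng/mL for 5 days (Activin + HGF). The question put to these groups here is which antiviral genes rose with activin, and how near to the control level each of them lay once HGF had followed. All 9 libraries came from this 1 line. No label says that replicates were separate cultures, so the spread between them may be technical. There was no group kept in activin, or given nothing, for the full course, and HGF and the later time cannot be told apart.

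Interferons bind receptors on the cell surface, and the kinases attached to them phosphorylate STAT proteins. STAT2 and IRF9 are subunits of ISGF3, the factor that binds the interferon-stimulated response element in the promoters of antiviral genes. Epithelial cells, those of the gut included, carry this programme at a low basal level and raise it after sensing foreign nucleic acid or interferon. Its products block virus entry, degrade or mark viral RNA, halt translation or conjugate the ubiquitin-like protein ISG15 to other proteins.

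Promoters of members from the 3 return patterns described below are shown first, because this element occurs in many of these genes although their changes differ. RefSeq promoters (GRCh38.p14, from 250 bases before to 50 bases after each start) were matched by symbol for 40 of the 49 genes. The core motif searched was GAAANNGAAA on both strands. It was found for 28 of the 40 genes (70%), against 4.38% of all 27305 genes with a promoter in the same table. The lines that follow give 100 bases from position -160 to -61 relative to the annotated start, 5′ to 3′ on the gene's own strand. Capitals mark the core motif or its reverse complement, and adjoining copies overlap.
ISG15, chr1:1013337-1013436, plus strand: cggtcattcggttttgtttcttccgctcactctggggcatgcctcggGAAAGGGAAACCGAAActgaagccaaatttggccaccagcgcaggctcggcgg
IFI6, chr1:27672253-27672352, minus strand: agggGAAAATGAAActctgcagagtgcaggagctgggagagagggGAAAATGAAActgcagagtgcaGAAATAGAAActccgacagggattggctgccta
HERC5, chr4:88456959-88457058, plus strand: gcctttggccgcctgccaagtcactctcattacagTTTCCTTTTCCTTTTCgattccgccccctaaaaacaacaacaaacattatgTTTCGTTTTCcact
BST2, chr19:17405691-17405790, minus strand: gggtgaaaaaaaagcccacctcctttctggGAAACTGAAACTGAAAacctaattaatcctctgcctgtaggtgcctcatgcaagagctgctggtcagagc
IFIT1, chr10:89392463-89392562, plus strand: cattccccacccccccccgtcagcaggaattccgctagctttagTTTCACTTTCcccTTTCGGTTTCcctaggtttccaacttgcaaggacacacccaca
IFIT3, chr10:89327837-89327936, plus strand: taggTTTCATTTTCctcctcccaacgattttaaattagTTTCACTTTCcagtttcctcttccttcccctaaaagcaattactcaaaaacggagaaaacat
DDX60, chr4:168318813-168318912, minus strand: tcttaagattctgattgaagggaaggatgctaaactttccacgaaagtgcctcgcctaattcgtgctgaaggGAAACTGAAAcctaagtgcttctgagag
ISG15 and IFI6 stayed above control after HGF, HERC5 and BST2 came back to it, and IFIT1, IFIT3 and DDX60 ended below it. These stretches were picked because they hold the motif, and 12 of the 40 matched genes, TRIM25, OAS1 and STAT2 among them, lack it in the window. The motif was found for 3 of 4 matched genes that stayed above control, 7 of 9 that came back to it, 4 of 5 that ended below it and 12 of 19 that activin did not raise 2-fold. Another motif, the gamma-activated site TTCNNNGAA, was found for 10 of the 40 genes (25%), against 9.38% of all genes. A match describes these letters only and is not a binding site.

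Levels between genes are compared below in FPKM (fragments per kilobase of transcript, scaled for depth, as deposited), and changes are log2 fold changes with standard errors (SE) from edgeR on the deposited read counts. A change was called when the Benjamini-Hochberg adjusted p over all 20988 tested genes was under 0.05 and the fold was at least 2. The filter on low counts kept 46 of the 49 members. IFI44L, XAF1 and GBP4 did not pass it. Total counts on genes ran from 57453977 to 77016167 per library. The fit scales libraries by TMM, which placed the 3 Activin + HGF libraries at factors of 0.783 to 0.926. Scaled by library totals alone, the median log2 fold change of all genes was -0.38 for Activin + HGF against Activin and -0.30 against control, in place of -0.04 and -0.03, so an FPKM ratio for that group lies below the fold change quoted for the same gene.

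With activin, 20 of the 46 tested members were called higher, against 6.78% of all tested genes, and 36 of 46 had a fold change above 0. The edgeR test called 0 members lower (0 also at an unadjusted p under 0.05, and 0 by DESeq2), against 4.62% of all genes. The median over the tested members was 0.76 on the log2 scale, beside 0.02 over all genes. When Activin + HGF was compared with Activin, 22 members were called lower (4.21% of all genes) and 1, GBP2, was called higher (3.87% of all genes). The median of the members was -1.18, beside -0.04 over all genes. Against control, Activin + HGF had 7 members called higher (11.3% of all genes) and 14 called lower (10.2% of all genes), with a median of -0.13 beside -0.03. The comparisons share libraries, and the calls entered the choice of the members, so nothing is read from these shares. In bulk RNA, fewer cells carrying a transcript and less of it per cell cannot be told apart.

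The genes fell into 4 patterns. Activin raised 22 members at least 2-fold. The rise was called for 20 of them, and not for SAMD9 (1.18, SE 0.527) and SAMD9L (3.50, SE 1.59). After HGF, 7 of the 22 were still at least 2-fold above control, 9 were within 2-fold of it and 6 were at least 2-fold below it. The difference from control was called for 6 of these 7 and 5 of these 6, and not for MX2 and SAMD9L. The 7 members called higher against control were thus not the same 7: they held GBP2, which activin did not raise, and not MX2. The other 24 tested members were not raised 2-fold, and 10 of them nevertheless ended at least 2-fold below control. The share of the activin rise that was gone after HGF (the drop in log2 fold change as a percentage of the rise) had a median of 78.7% over the 22 genes. It had a median of 37.2% in the genes that stayed above control (16.3% to 62.2%), 84.7% in those that came back (54.1% to 110%) and 184% in those that ended below it (125% to 272%). The 272% was that of SAMD9, whose rise was not called. On the edges of these classes lay TRIM25 (1.06 above control) and IFI44 (0.78), IFIT2 (-1.20) and RSAD2 (-0.51), and, for the rise with activin, SAMD9 (1.18) and HERC6 (0.78).

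**Figure D1:**
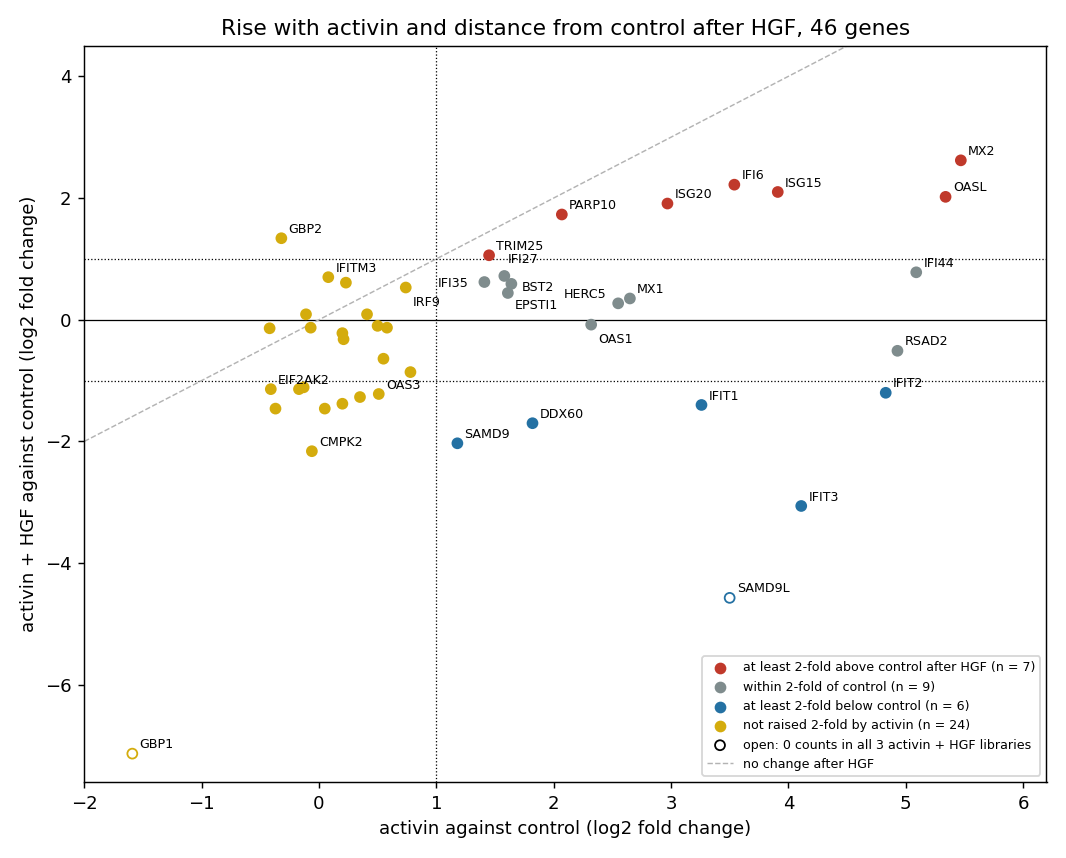
Each point is 1 of the 46 tested genes, with the log2 fold change of Activin against control on the x axis and that of Activin + HGF against control on the y axis; dotted lines mark 2-fold, the dashed line no change after HGF, and open circles the 2 genes with 0 counts in every Activin + HGF library, whose fitted y value has no fixed size. The 7 red genes stay above the upper dotted line while the 6 blue ones, among them 3 of the 4 IFIT genes, lie below the lower one.

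ISG15, a ubiquitin-like modifier, was the member with the highest level in activin. Its level was 41.3, 44.6 and 37.8 FPKM in the control libraries, 540, 768 and 633 FPKM in Activin and 159, 135 and 132 FPKM in Activin + HGF. The 3 groups did not overlap, and every Activin + HGF library stood between the other groups. ISG15 rose by a log2 fold change of 3.91 (SE 0.247) with activin, and was 2.10 (SE 0.229) above control after HGF. OASL, an oligoadenylate synthetase-like protein without the synthetase activity, was at 1.14, 1.17 and 1.25 FPKM in control, 43.6, 63.4 and 43.9 FPKM in Activin and 2.0, 4.93 and 5.11 FPKM in Activin + HGF. It rose further than ISG15 on the log2 scale (5.34, SE 0.362) and ended at a similar distance from control (2.02, SE 0.315). The lowest Activin + HGF value was that of replicate 1.

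IFI6, a small membrane protein, and ISG20, an exoribonuclease, showed the same order of groups. IFI6 was at 8.50, 4.38 and 4.95 FPKM in control, 66.7, 94.7 and 52.6 FPKM in Activin and 23.2, 20.3 and 23.6 FPKM in Activin + HGF. ISG20 was at 0.38, 0.43 and 0.40 FPKM in control, 3.06, 4.14 and 2.82 FPKM in Activin and 1.21, 1.23 and 1.29 FPKM in Activin + HGF. Their residual log2 fold changes against control were 2.22 (SE 0.324) and 1.91 (SE 0.239), so both kept more than they lost of the log2 rise. PARP10, a mono-ADP-ribosyltransferase, lost the least, 16.3%. It was at 0.13, 0.12 and 0.19 FPKM in control, 0.77, 0.66 and 0.58 FPKM in Activin and 0.54, 0.28 and 0.37 FPKM in Activin + HGF. By limma on log2(FPKM + 0.1) PARP10 fell within 2-fold of control, and on log2(FPKM + 1) it was not raised 2-fold by activin.

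TRIM25, a ubiquitin ligase of the RNA-sensing pathway, was at 15.7, 17.0 and 16.3 FPKM in control, 46.9, 46 and 48.7 FPKM in Activin and 29.4, 26.4 and 26.7 FPKM in Activin + HGF. Replicates were close and the groups far apart, but its residual of 1.06 (SE 0.162) lay at the class edge: scaled by library totals, or without Activin + HGF replicate 1 or control replicate 1, or by limma on log2(FPKM + 0.1), it fell within 2-fold of control. MX2, a dynamin-like GTPase, is counted with these 7 genes on few reads. It had 0, 0 and 4 counts in control, 54, 62 and 67 in Activin and 11, 11 and 0 in Activin + HGF. The activin group stood apart, while the other groups overlapped. Its residual of 2.62 (SE 1.37) was not called. In a fit of the groups compared alone MX2 fell within 2-fold of control. By limma on log2(FPKM + 0.1) or log2(FPKM + 1) it was not raised 2-fold by activin.

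**Figure D2:**
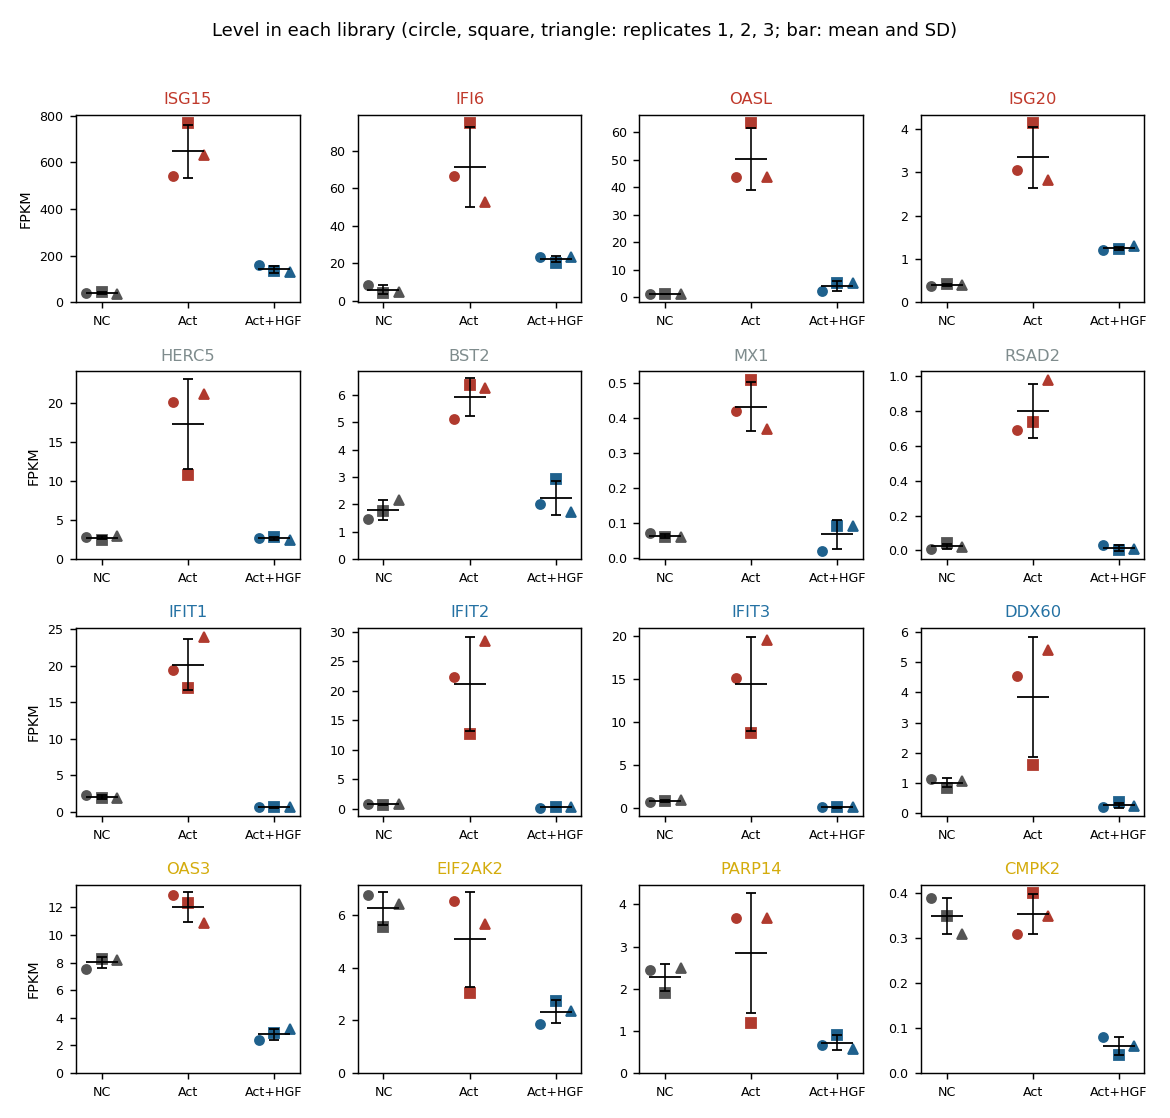
Each panel gives the FPKM of 1 gene in the 9 libraries (y axis from 0, its own scale per gene; x axis, the 3 groups), with the mean and SD as bars; title colours follow the patterns (red above control after HGF, grey within 2-fold, blue below, yellow not raised 2-fold by activin). ISG15 is at 132 to 159 FPKM after HGF, above all control libraries, whereas IFIT3 is at 0.04 to 0.13 FPKM, below all of them.

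The 9 genes that came back to within 2-fold of control were MX1, OAS1, RSAD2, IFI27, IFI35, IFI44, HERC5, BST2 and EPSTI1. HERC5, the ligase that attaches ISG15 to proteins, was at 2.82, 2.50 and 2.93 FPKM in control, 20.1, 10.7 and 21.1 FPKM in Activin and 2.77, 2.81 and 2.48 FPKM in Activin + HGF. Control and Activin + HGF overlapped for HERC5 and lay 0.27 (SE 0.217) apart on the log2 scale, whereas ISG15 stayed well above control. BST2, or tetherin, which holds budding virus particles on the cell surface, was at 1.45, 1.75 and 2.17 FPKM in control, 5.13, 6.35 and 6.26 FPKM in Activin and 2.03, 2.91 and 1.71 FPKM in Activin + HGF. IFI35 was at 2.75, 2.68 and 3.46 FPKM, then 7.59, 9.11 and 8.19 FPKM, then 2.04, 4.20 and 5.15 FPKM. In IFI35 the 3 Activin + HGF libraries lay on both sides of control, replicate 1 being the lowest.

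MX1, the better known of the 2 MX proteins, was at 0.07, 0.06 and 0.06 FPKM in control, 0.42, 0.51 and 0.37 FPKM in Activin and 0.02, 0.09 and 0.09 FPKM in Activin + HGF. RSAD2, or viperin, which makes a chain-terminating nucleotide, had 4, 15 and 8 counts in control, 239, 255 and 354 in Activin and 12, 0 and 4 in Activin + HGF. IFI44 had 14, 13 and 9 counts in control, 430, 277 and 592 in Activin and 44, 0 and 8 in Activin + HGF. All 3 genes were low outside activin. The classes of RSAD2 and IFI44 rest on Activin + HGF replicate 1: without it both ended at least 2-fold below control, and without replicate 2 or replicate 3 IFI44 ended above it. OAS1, IFI27 and EPSTI1 had residuals of -0.08 (SE 0.504), 0.72 (SE 0.271) and 0.44 (SE 0.446).

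The IFIT proteins bind viral RNA and block its translation, and IFIT3 had the largest fall after HGF of any member read in all 3 groups. IFIT3 was at 0.70, 0.76 and 0.88 FPKM in control, 15.2, 8.67 and 19.6 FPKM in Activin and 0.05, 0.13 and 0.04 FPKM in Activin + HGF. The groups did not overlap, and the fall from Activin was -7.17 (SE 0.467) on the log2 scale, which left IFIT3 at -3.06 (SE 0.412) against control. IFIT2 was at 0.78, 0.53 and 0.77 FPKM in control, 22.3, 12.7 and 28.5 FPKM in Activin and 0.17, 0.30 and 0.26 FPKM in Activin + HGF. IFIT1 rose from a mean of 1.98 ± 0.229 FPKM (SD, n = 3) to 20.1 ± 3.53 and ended at 0.61 ± 0.0458, or -1.40 (SE 0.172) against control. IFIT5 differed from its 3 neighbours in the activin step. It was at 5.32, 4.08 and 4.95 FPKM in control, 5.62, 2.99 and 5.03 FPKM in Activin and 0.67, 2.20 and 2.57 FPKM in Activin + HGF. IFIT5 thus had a fold change of -0.17 (SE 0.369) with activin, while its residual, -1.14 (SE 0.375), was near those of IFIT1 and IFIT2. The 4 genes lie side by side on chromosome 10, from position 89283694 (start of IFIT2) to 89420997 (end of IFIT5) in the deposited coordinates, and the RefSeq promoter window of IFIT5 holds 3 copies of the core motif.

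SAMD9 and SAMD9L, neighbours on chromosome 7 that restrict poxvirus translation, and the helicase-related DDX60 make up the rest of the group that ended below control. SAMD9 was at 2.45, 1.3 and 1.99 FPKM in control, 6.23, 2.45 and 5.33 FPKM in Activin and 0.08, 0.62 and 0.48 FPKM in Activin + HGF. DDX60 was at 1.13, 0.83 and 1.04 FPKM, then 4.55, 1.58 and 5.41 FPKM, then 0.19, 0.34 and 0.22 FPKM. In both genes Activin replicate 2 was much the lowest of its group, and for SAMD9 it equalled the highest control library. SAMD9L had 8, 0 and 0 counts in control, 51, 12 and 45 in Activin and 0 in every Activin + HGF library. The limit that a count of 0 allows was set at 3 counts over the group, with each count taken as a separate read. SAMD9L was then at least 31.9-fold lower than in Activin and at least 2.39-fold lower than in control. Its place below control rests on 8 counts in control replicate 1. Counts of low genes were often multiples of 4, so a deposited count may not be a separate read and these bounds may be too strong. With counts divided by 4, SAMD9L did not pass the filter. With SAMD9L at its bound of 2.39-fold against control, the median residual of the 6 genes was -1.55 in place of -1.87.

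Genes that activin did not raise 2-fold, but that ended at least 2-fold below control, were IFIT5, OAS3, CMPK2, DDX60L, EIF2AK2, PARP9, PARP14, DTX3L, TRIM22 and GBP1, of which TRIM22 alone was not called. OAS3, which makes the oligoadenylates that activate RNase L, was at 7.56, 8.29 and 8.17 FPKM in control, 12.9, 12.3 and 10.8 FPKM in Activin and 2.36, 2.89 and 3.16 FPKM in Activin + HGF. EIF2AK2, the double-stranded RNA-activated kinase PKR, was at 6.77, 5.54 and 6.42 FPKM in control, 6.52, 3.03 and 5.65 FPKM in Activin and 1.87, 2.74 and 2.34 FPKM in Activin + HGF. OAS3 was therefore above control in all Activin libraries (0.51, SE 0.162) and EIF2AK2 was not (-0.41, SE 0.222), yet their residuals were -1.22 (SE 0.164) and -1.14 (SE 0.224). PARP9 and DTX3L, which form a complex and are encoded head to head on chromosome 3, both had a residual of -1.46 (SE 0.312 and 0.339). PARP9 was at 1.46, 1.44 and 1.66 FPKM, then 1.53, 0.81 and 1.44 FPKM, then 0.23, 0.65 and 0.49 FPKM. The libraries of Activin + HGF lay below all others for PARP9, as they did for PARP14 (residual -1.38, SE 0.343).

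CMPK2, a mitochondrial nucleotide kinase, was at 0.39, 0.35 and 0.31 FPKM in control, 0.31, 0.40 and 0.35 FPKM in Activin and 0.08, 0.04 and 0.06 FPKM in Activin + HGF. Its residual was -2.16 (SE 0.440). TRIM22, a ubiquitin ligase, had 28, 36 and 26 counts in control, 25, 23 and 73 in Activin and 11, 19 and 4 in Activin + HGF, and Activin replicate 3 stood above all others. GBP1, an interferon-inducible GTPase, had 4, 14 and 40 counts in control, 10, 4 and 4 in Activin and 0 in all Activin + HGF libraries. With the same limit of 3 counts, GBP1 was at least 17.3-fold lower than in control, from a level of 0.09 FPKM or less. This bound too takes each count as a separate read and may be too strong. Of its 58 control counts 40 were in replicate 3, and without that library the bound was 8.75-fold. Its paralog GBP2 was the only member called higher in Activin + HGF than in Activin, at 0.35, 0.18 and 0.33 FPKM in control, 0.24, 0.29 and 0.19 FPKM in Activin and 0.90, 0.49 and 0.34 FPKM in Activin + HGF. The last of these lay within the control range, and the highest was replicate 1.

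**Figure D3:**
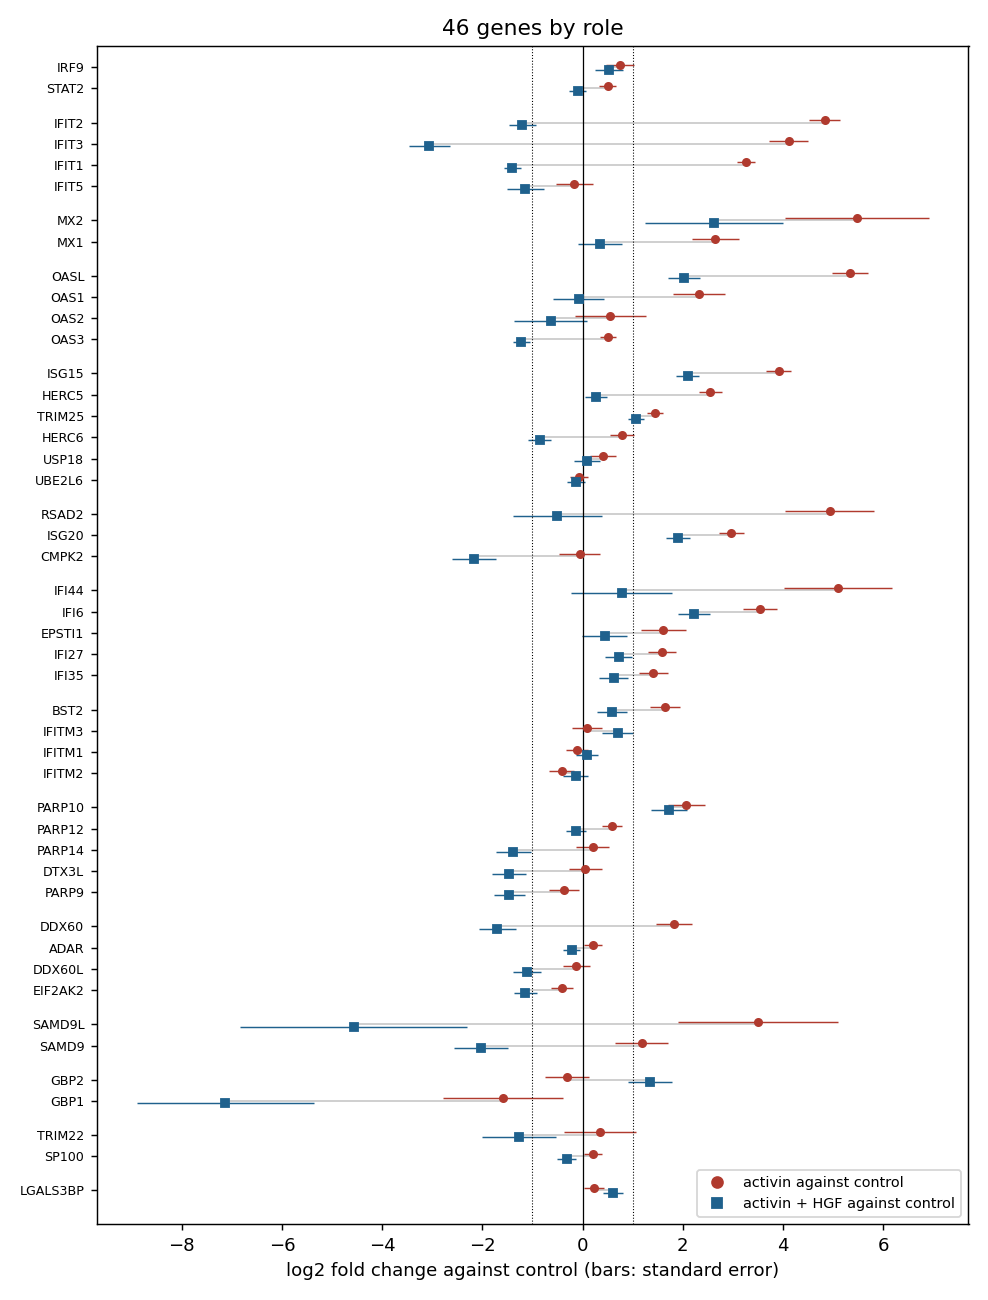
Log2 fold change (x axis) of Activin (red circles) and Activin + HGF (blue squares) against control for the 46 tested genes, in blocks by role (y axis), with the standard error as bars and 2-fold as dotted lines. The circles of IFIT2, MX2, OASL, RSAD2 and IFI44 lie near 5, whereas blue squares run from 2.62 for MX2 to the far left for SAMD9L and GBP1, which have 0 counts in Activin + HGF.

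Of the remaining members, HERC6 alone was called in a comparison. The ISGF3 subunit STAT2 was at 4.78, 4.17 and 4.30 FPKM in control, 7.56, 6.40 and 5.85 FPKM in Activin and 2.63, 3.80 and 3.73 FPKM in Activin + HGF, a change of 0.50 (SE 0.171) with activin and a residual of -0.10 (SE 0.171). No groups of STAT2 overlapped in FPKM. IRF9 was at 1.33, 1.31 and 1.34 FPKM, then 1.53, 2.22 and 3.29 FPKM, then 1.4, 1.9 and 1.39 FPKM. Every library of IRF9 outside control was above control, by an amount that varied over 2-fold within Activin, and all of its 50-base windows also occur in an overlapping annotated gene. Of the ISG15 system, the conjugating enzyme UBE2L6 was at 15.6, 16.3 and 15.1 FPKM in control, 15.1, 17.3 and 14.5 FPKM in Activin and 10.4, 12.3 and 12.3 FPKM in Activin + HGF. The FPKM of UBE2L6 was lower after HGF in all libraries, whereas on the TMM scale of the fit its residual was -0.13 (SE 0.173). The ISG15 protease USP18 had a residual of 0.09 (SE 0.258), and 23.4% of its 50-base windows occur in other genes. HERC6, the relative of HERC5 beside it on chromosome 4, was at 1.27, 1.29 and 1.18 FPKM, then 2.52, 1.47 and 2.93 FPKM, then 0.57, 0.53 and 0.56 FPKM. Its groups did not overlap, it was called lower from Activin to Activin + HGF (-1.64, SE 0.241), and its residual was -0.86 (SE 0.238).

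The IFITM proteins, which hinder virus entry, were not called in any comparison. IFITM3 was at 129, 161 and 131 FPKM in control, 127, 200 and 136 FPKM in Activin and 242, 154 and 150 FPKM in Activin + HGF. IFITM2 was at 27.8, 37.0 and 26.2 FPKM, then 19.4, 30.7 and 20.6 FPKM, then 21.3, 22.8 and 23.2 FPKM. IFITM1 was at 4.19, 4.44 and 4.38 FPKM, then 4.03, 3.79 and 4.92 FPKM, then 3.21, 4.49 and 3.6 FPKM. IFITM3 was high in Activin + HGF replicate 1, and both IFITM2 and IFITM3 were high in Activin replicate 2. These 3 paralogs share 15.8% to 42.3% of their 50-base windows with other genes. The secreted glycoprotein LGALS3BP was at 78.9, 86.4 and 79.5 FPKM in control, 89.4, 123 and 85.7 FPKM in Activin and 87.1, 106 and 111 FPKM in Activin + HGF. The nuclear body protein SP100 was at 1.88, 1.70 and 1.73 FPKM, then 2.44, 1.61 and 2.50 FPKM, then 0.87, 1.34 and 1.27 FPKM, and the RNA-editing enzyme ADAR and PARP12 had residuals of -0.22 (SE 0.178) and -0.13 (SE 0.199). OAS2 had 130, 12 and 83 counts in Activin against 38 to 60 in control. Of the members not tested, IFI44L had 42, 0 and 19 counts in Activin and 7, 0 and 0 in control, GBP4 had 38 counts or fewer in any library, and XAF1 was read only in Activin replicate 3, with 18 counts.

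By level in control, 20 members lay under 1 FPKM, 22 between 1 and 10 FPKM and 7 at 10 FPKM or more. Of the 17 tested genes of the low class, 12 rose at least 2-fold with activin. In the middle class 8 of 22 did, and in the high class 2 of 7 did. Both of the latter, ISG15 and TRIM25, stayed above control after HGF. The 3 members that the filter on low counts removed were all of the low class. MX2 (0, 0 and 4 counts in control) and SAMD9L (8, 0 and 0) passed it through their Activin counts. The share of the low class that rose was thus partly set by the filter. The share over all genes of that level was not computed, so nothing is read from these counts. The 3 return patterns each held genes of the low class (3, 6 and 3 genes) and of the middle class (2, 3 and 3 genes). A basal level under 1 FPKM therefore occurred with all 3. The nearest genes to the limits were DDX60 (1.00 FPKM) and IFIT3 (0.78), and UBE2L6 (15.7) and OAS3 (8.01). The standard error of the change with activin had a median of 0.462 in the low class (0.248 to 1.59), 0.275 in the middle class (0.162 to 0.527) and 0.203 in the high class (0.163 to 0.301), so the ranges overlapped.

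Of 21 pairs of tested members within 200000 bases of each other, 12 lay in the same pattern and 9 in different ones. The 3 raised IFIT genes and the 3 IFITM genes were among the former. So were GBP1 and GBP2, although GBP1 had 0 counts in Activin + HGF and GBP2 ended 1.34 above control. The pattern not raised 2-fold holds 24 of the 46 tested members, so many pairs match whether or not they are neighbours. The share over all pairs of members was not computed, and nothing is read from the count. RSAD2 and CMPK2, which are unrelated in sequence family, overlap on opposite strands of chromosome 2, and RSAD2 rose with activin by 4.93 (SE 0.883) where CMPK2 had -0.06 (SE 0.414). HERC5 rose by 2.55 (SE 0.228) beside HERC6 at 0.78 (SE 0.236). DDX60 rose by 1.82 (SE 0.363) beside DDX60L at -0.13 (SE 0.269), although both ended below control, by -1.70 (SE 0.367) and -1.11 (SE 0.272). On chromosome 12, OAS1 rose by 2.32 (SE 0.517) and OAS3 by 0.51 (SE 0.162), and the residual of OAS1 was -0.08 against -1.22 for OAS3. Whether counting used strand is not stated, and 18 members overlap a gene on the opposite strand, so reads of such pairs cannot be assigned with certainty.

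The return patterns also differed in the composition of their transcripts, which the selection did not use. The longest coding transcript had a median GC content of 54.1% in genes that stayed above control (49.8% to 66.9%), 48.2% in those that came back (39.1% to 58.8%) and 40.6% in those that ended below (36.0% to 44.3%). Their median lengths were 3042, 2416 and 5342 nucleotides. Genes in general followed GC as well: against control, the median of all genes in Activin + HGF was -0.24 over the 5160 genes of lowest GC and 0.37 over the 5160 of highest GC. They also followed length, with a median of 0.11 over the 5164 genes of shortest transcript and -0.19 over the 5159 of longest. The GC ranges of the genes above and below control did not overlap. With offsets for length and GC in every library (chosen after seeing the data), 44 of 46 members kept their class and the median residuals were 1.93, 0.48 and -1.54 for the 3 patterns, in place of 2.02, 0.44 and -1.87. IFIT2 then came within 2-fold of control and IFI44 rose above it.

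A pair of libraries stood apart from their replicates. Activin replicate 2 lay below the mean of the other activin libraries in the genes of lowest GC, with a median difference of -0.57 on the log2 scale, and above it in those of highest GC, with 0.52. Among members, 18 of 19 with a GC content under 45% were lower in that library, and 1 of 20 with at least 50% was. The difference was -1.42 for DDX60 and -1.40 for PARP14 on the log2 scale, but 0.62 for ISG15 and 0.76 for OASL. Activin + HGF replicate 1 had the larger spread in its own group, with SAMD9 at -2.31 and IFIT5 at -1.57 against the other replicates and IFI44 at 2.60. Without both libraries (also chosen after seeing the data), 21 members were called higher with activin and 22 lower from Activin to Activin + HGF. Against control, 5 were then called higher and 12 lower. The genes that stayed above, came back or ended below numbered 6, 8 and 10, with RSAD2, IFI44, OAS2 and IFI44L, which the filter had removed from the fit of all libraries, newly below and TRIM25 newly within 2-fold. What set these libraries apart was not tested.

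**Figure D4:**
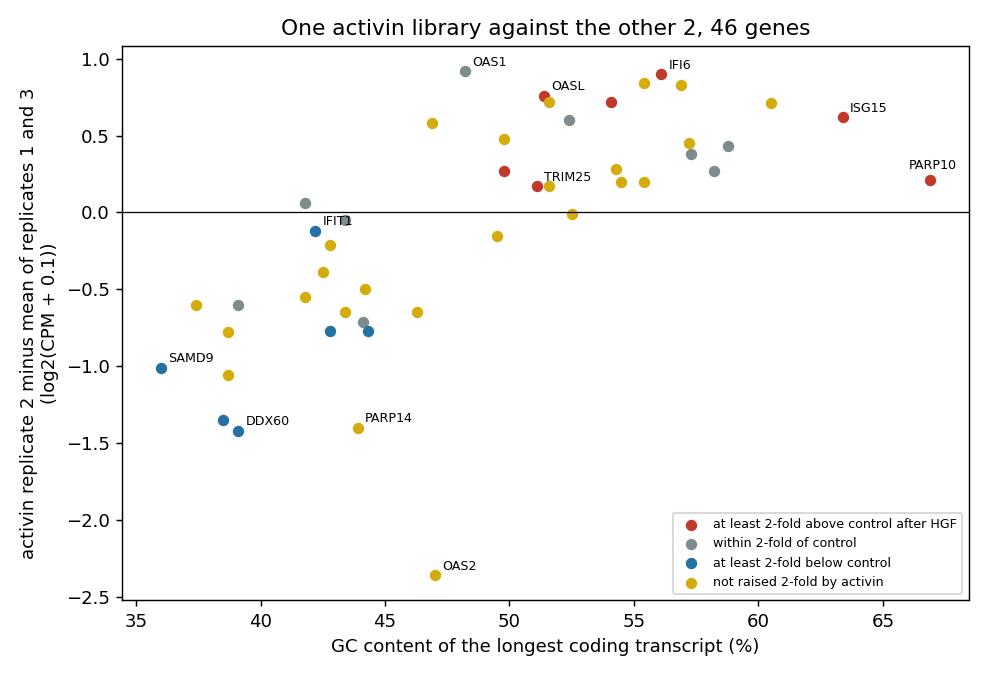
Difference of Activin replicate 2 from the mean of the other 2 activin libraries on the log2(CPM + 0.1) scale (y axis) against the GC content of the longest coding transcript in percent (x axis), for the 46 tested genes, coloured by pattern. Low-GC members such as DDX60 (-1.42) lie below 0 and high-GC members such as IFI6 (0.90) above it, with OAS2 lowest at -2.36.

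The signalling genes upstream were taken from a separate list of 21 genes. With activin 4 rose (SOCS1, SOCS3, IRF1 and IRF7), beside 6.78% of all tested genes. Between Activin and Activin + HGF, SOCS1 rose and IFNAR1 and IRF1 fell, beside 3.87% and 4.21% of all genes. Against control, Activin + HGF had 5 higher (IFNLR1, IFNGR1, SOCS1, SOCS3 and IRF7) and 1 lower (IFNAR1), beside 11.3% and 10.2%. The receptor subunits IFNLR1 and IFNGR1 ended 1.06 and 1.24 above control (edgeR adjusted p = 0.00171 and 0.00074). The subunits IFNGR2 (0.87), IL10RB (0.12) and IFNAR2 (-0.95) were not called against control. IFNAR1, a subunit of the type I interferon receptor, was at a mean of 4.94 ± 0.441 FPKM (SD, n = 3) in control, 4.97 ± 1.42 in Activin and 1.34 ± 0.309 in Activin + HGF, and fell by 1.5 on the log2 scale from Activin to Activin + HGF (edgeR adjusted p = 0.00479). SOCS1, a feedback inhibitor of the receptor kinases, rose by 2.45 with activin (edgeR adjusted p = 0.000485) and by a further 1.43 after HGF (adjusted p = 0.0127). IRF7, a factor that drives interferon genes and is itself interferon-inducible, rose by 3.42 (edgeR adjusted p = 1.59e-05) and was at 9.96 ± 0.953 FPKM after HGF, against 1.02 ± 0.112 in control.

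Of 39 further interferon-induced genes outside the members, 34 were tested. Activin raised 7 of them, beside 6.78% of all tested genes. From Activin to Activin + HGF 1 was higher and 10 were lower, beside 3.87% and 4.21%. Against control 5 were higher and 3 lower, counts near the shares of all genes, 11.3% and 10.2%. The RNA sensor IFIH1 rose by 2.10 (edgeR adjusted p = 0.000315), fell by 2.15 on the log2 scale after HGF (adjusted p = 0.00177) and ended at -0.05 from control (adjusted p = 0.886). CD274, which encodes the immune checkpoint ligand PD-L1, rose by 2.75 (edgeR adjusted p = 0.000162) and was still 2.64 above control after HGF (adjusted p = 0.000101).

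The labelled cell type was checked with 8 colorectal epithelial markers, of which 6 had a mean of at least 1 FPKM in every group, while VIL1 and CDH17 were near 0. Of 8 leukocyte markers 7 were in the table, and their summed level was 0.38 to 0.58 FPKM in control, 2.03 to 2.31 in Activin and 1.05 to 1.72 in Activin + HGF, the order seen in ISG15. ITGAX led them (1.55 FPKM in Activin), and the pan-leukocyte marker PTPRC was at 0.02 FPKM or less in all libraries. The 5 fibroblast markers summed to 2.62 to 2.69, 4.58 to 6.04 and 2.88 to 3.65 FPKM, mostly COL1A1, and the 3 endothelial markers to 0.14 FPKM or less. The part of such cells in the members' changes was not tested. In the annotation carried by the table, 31 of 48 annotated members (64.6%) bore the term defense response to virus, against 1.06% of annotated genes. The list was made of interferon-stimulated effector genes, so a high share was set by its choice and nothing is read from it.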

How the data were processed

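Total RNA of HCT116 cells was depleted of ribosomal RNA and sequenced. Per the labels, the submitters' processing notes name cutadapt 1.9, HISAT2 2.0.4 and StringTie 1.3.4d; the genome build is not given in the sources used here. The deposited table holds read counts and FPKM per gene and library, made by the authors, with 57453977 to 77016167 counts per library. The columns of the Activin + HGF libraries are headed by the cell line's name alone and were tied to their group by the sample descriptions. Gene positions were identical to GENCODE 29 (GRCh38) for 19788 of 33861 genes.

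Counts were tested with edgeR 4.0.16 (filterByExpr, TMM, quasi-likelihood) over all 9 libraries with 3 group means, and calls required a Benjamini-Hochberg adjusted p under 0.05 and a fold of at least 2. Transcript length and GC came from GENCODE 29. The scripts were tested on simulated data, in which 200 genes were given a log2 change of 2 up or down in Activin. Of these, 46.5% were called against control, so a gene that was not called may still have changed. Alternatives were DESeq2, limma 3.58.1 on log2(FPKM + 0.1) or log2(FPKM + 1), other scalings and filters, a replicate block and leaving out libraries. The members, gene lists and the genes whose values are given for every library were chosen with earlier results of these data known. By rule, values in every library were given for STAT2, IRF9, the IFITM genes, the members at each class edge and, in each role, those with the largest and smallest change with activin; other members (IFI6, ISG20, HERC5 and the like), IRF1, SOCS3 and IFIH1 were named after their values were seen. An exact permutation test of 3 against 3 libraries cannot go below p = 0.1, so none was used.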

Additional observations from a re-analysis of the deposited data

How the results depend on the processing

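The replicate numbers did not pair the libraries (correlations of same-numbered deviations from -0.0606 to 0.0882 over 9 pairs), and with them as a replicate block every member kept its class, 18 members were called higher with activin and the median share of the activin rise gone after HGF was 82.0% in place of 78.7%. That share was 73.3% with at least 50 counts in 3 libraries, 67.3% with counts divided by 4, 72.9% with length and GC offsets, 90.8% by library totals, 99.1% and 85.1% by limma on log2(FPKM + 0.1) and log2(FPKM + 1), 87.1% with no filter, and 77.9% to 89.5% on leaving out libraries. By limma on log2(FPKM + 1), 13 members were called higher with activin, and against control after HGF 3 higher and 5 lower; 3 genes stayed above control and 0 ended below it, a scale on which low genes are compressed, and 31 of 46 members kept their class. By limma on log2(FPKM + 0.1), 4 members were called higher against control, 4 genes stayed above it and 41 of 46 kept their class. With 1.5-fold around control, 11 stayed above and 5 came back. On leaving out libraries, 6 to 10 genes ended below control, with 10 both without Activin + HGF replicate 1 alone and without Activin replicate 2 as well.

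Of all genes, 2394, 1697 and 4519 were called for Activin against control, Activin + HGF against Activin and Activin + HGF against control. These counts became 1176, 660 and 2206 by limma on log2(FPKM + 1). With no fold limit the first 2 were 3776 and 2698. Activin + HGF against Activin gave 677 in a fit of those groups alone and 606 to 2422 on leaving out libraries, with 606 without Activin replicate 1, 866 without Activin replicate 3 and 1079 without Activin + HGF replicate 1. Signalling genes called numbered 7, 6 and 10 for the same comparisons with no fold limit. Between Activin and Activin + HGF they numbered 5 by library totals and 5 by limma on log2(FPKM + 0.1), and between control and Activin + HGF 3 by limma on log2(FPKM + 1). The other interferon-induced genes called numbered 14 with activin with no fold limit. From Activin to Activin + HGF they were 6 with length and GC offsets, 7 in a fit of those groups alone and 5 to 10 on leaving out libraries, with 5 without Activin replicate 1. Against control after HGF they were 13 by library totals, 14 by limma on log2(FPKM + 0.1) and 13 with no fold limit. Of the members' fold changes 96 were followed, which leaves out some tested members or comparisons. Of 1993 alternative values for these, 1785 lay within 1 SE of the reported value, 208 lay further away and 0 of those with a called change turned sign. The offsets and the removal of both libraries were chosen after seeing the data. Depth limits MX2, SAMD9L, GBP1, RSAD2 and IFI44, whose libraries outside their highest group held 44 counts or fewer.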
